A study of Oryctolagus cuniculus with 24 samples.

Results

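The response of rabbit peripheral blood mononuclear cells (PBMCs) to lipopolysaccharide (LPS) after 24 h (T24) was described across all genes of a one-colour rabbit microarray. PBMCs are the lymphocytes and monocytes that density centrifugation separates from blood. The comparison was defined by the labels alone, as the 4 LPS-stimulated cultures against the 4 mock-stimulated cultures harvested at T24, which were 8 of the 24 arrays of the series. The blood was that of adult females of the New Zealand White breed, called rabbits 1, 2, 4 and 5 in the labels, and each animal gave 1 culture to each group, so that the LPS and mock arrays of a rabbit are a pair. Each culture held 500000 cells. LPS was given at 1 µg/mL, mock-stimulated cells received no stimulant, and all other conditions of the culture were shared. The other 16 arrays held the LPS and mock cultures harvested at 4 h (T4) and the cultures stimulated with PMA-Ionomycin, a phorbol ester with a calcium ionophore. PBMCs are a mixture, so a lower level after LPS can come from fewer cells of a type or from less RNA per cell, and these cannot be told apart.

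LPS is a glycolipid of the outer membrane of Gram-negative bacteria. Monocytes and macrophages bind it through CD14 and the receptor TLR4 with its partner MD-2, and the adaptors MyD88 and TRIF then lead to activation of NF-kappaB, MAP kinases and interferon regulatory factors. The first wave of transcripts encodes cytokines and chemokines, and later transcripts encode acute phase proteins, inhibitors that damp the signal, and enzymes of the activated macrophage. Monocytes kept in culture without a stimulus begin to differentiate towards macrophages, which enlarges their lysosomes and their set of scavenger receptors.

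The genes were read by probes of 60 bases. The first 30 bases are printed for the probes of the largest up- and down-regulated genes and of the transcripts without a gene symbol on which later paragraphs turn, with positions on rabbit chromosomes of the oryCun2 assembly as the files gave them. The probes of up-regulated genes lay at chr13:70013882-70013941 for F3, chr10:7776273-7776332 for IL6, chr9:104107353-104107412 for SERPINB2 and chr2:97751714-97751773 for IL36G, each on the plus strand, and A_04_P079802 had no position.
F3: gagacttttattttgggcatcttcccaaag
IL6: ccaaatcttttcttggaatgtgtaggctta
SERPINB2: caatttccaaggaatgtcggaaaaagatga
IL36G: aatccaaaaatgtgtctgttctgtgaggac
A_04_P079802: tccgccagatgtacagcacaaggctaatgg

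The probes of down-regulated genes are shown in the same way. PALLD was placed at chr2:47007053-47007600 and MLANA at chr1:48272199-48274067 (minus strand), intervals longer than the probe. ATP6V0D2 was placed at chr3:101635540-101635599, whereas GUSB and the transcript ENSOCUT00000014570 had no position.
PALLD: aagaaagaaaacgaatcactgacacacagc
MLANA: aagagaaaaactgtgaacttctggttccca
ATP6V0D2: tatggatagcagaatgcatctcacagagac
GUSB: aagtgcagctttcctcctgcgagatcgcta
ENSOCUT00000014570: aacagctcctctgttcatatcgggaacgtc

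Levels are given as log2 spot signal relative to the median spot of the array, so that 0 is the brightness of the median spot, and a log2 fold change (log2 FC) is the mean LPS level minus the mean mock level. Genes were called differentially expressed (DE) at an adjusted p under 0.05 in a limma fit of all 24 arrays. Of 28765 genes tested, 350 (1.22%) were DE, of which 181 (0.629% of those tested) were up-regulated and 169 (0.588%) down-regulated by LPS. Without adjustment 3115 genes had p under 0.05. The median log2 FC was 1.34 for the up-regulated genes and -1.13 for the down-regulated genes, beside -0.03 for all genes. A change of at least 4-fold was found for 40 up-regulated and 31 down-regulated genes. The 4 LPS levels did not overlap the 4 mock levels for 268 of the 350 DE genes, and 4.32% of all genes tested showed such a separation. When the rabbit was entered as a replicate block in the fit of 24 arrays, 744 genes (2.59%) were DE, 408 up and 336 down, and these included all 350. With the block and the 8 arrays alone 852 genes were DE, 284 of the 350 among them. The block named beside single genes is that of 24 arrays unless stated.

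**Figure D1:**
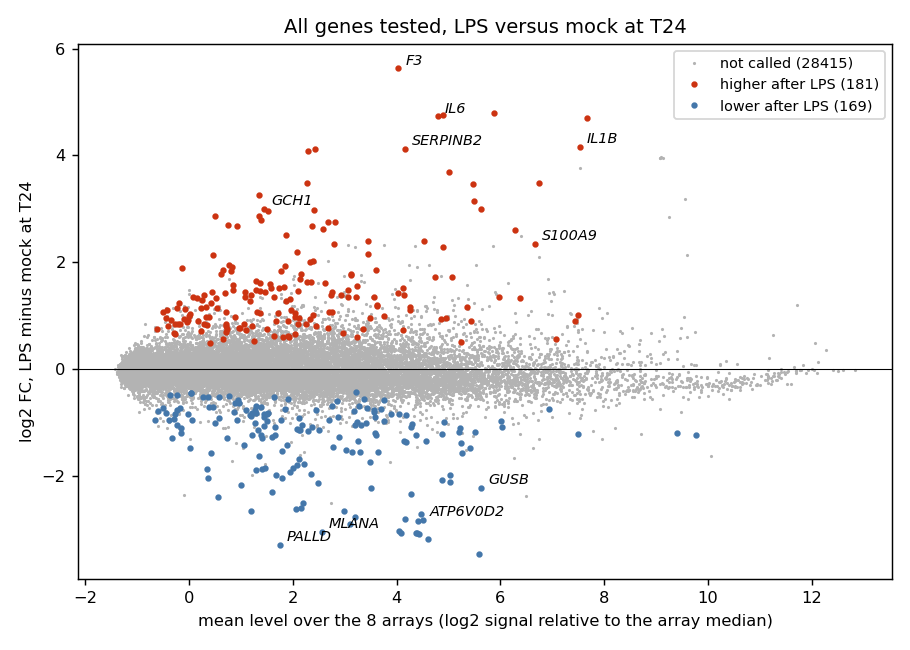
Log2 FC of LPS against mock at T24 (vertical axis) plotted against the mean level over the 8 arrays (horizontal axis, log2 signal relative to the array median) for 28765 genes. Grey points are 28415 genes that were not DE, red points the 181 up-regulated and blue points the 169 down-regulated genes; F3 has the largest log2 FC, 5.63.

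The arrays were of like quality. Between 57.47% and 62.27% of spots were well above the local background, the median signal of an array lay between 72 and 102.5. The arrays lay on 3 slides that each held LPS and mock cultures of T24, and with the slide as a block 314 genes were DE. Within slides 1, 2 and 3 the mean LPS minus mock difference had the direction of the call for 350, 344 and 350 of the 350 DE genes, which is no independent support, since the genes were called on these arrays. No slide held both T24 arrays of a rabbit, so these differences set different rabbits against each other. Slide 1 held the mock arrays of rabbits 4 and 5, slide 2 that of rabbit 1 and slide 3 that of rabbit 2. A difference in mock level between rabbits 4 and 5 and rabbits 1 and 2 therefore cannot be told apart from one between slides. The median LPS minus mock difference of the up-regulated genes was 1.06, 1.38, 1.46 and 1.18 for rabbits 1, 2, 4 and 5, and that of the down-regulated genes was -0.87, -1.21, -1.65 and -0.77. Both were largest in rabbit 4. The count of DE genes fell to 109 when rabbit 2 was left out and to 83 when rabbit 4 was left out, and was 244 without rabbit 1 and 608 without rabbit 5.

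Markers of the cell types of blood were measured on the same arrays. CD14, the LPS co-receptor that defines monocytes, was well above background on all 8 arrays, with levels from 7.93 to 9.28 in mock and from 7.88 to 9.14 in LPS cultures (log2 FC -0.13, 95% interval -0.82 to 0.57, adjusted p = 0.984). Of 17 monocyte and macrophage markers tested, S100A9 and MSR1 were up-regulated and CEBPA and MPEG1 down-regulated. With the rabbit as block AIF1 (log2 FC -0.99), MARCO (-1.98) and CYBB (-1.17) passed downward, at adjusted p of 0.00607, 0.00843 and 0.0155, against 0.138, 0.343 and 0.0755 without it. The signal summed over the list was 615 to 1336 times the array median in mock and 703 to 1269 in LPS cultures. None of 10 B cell, 13 T cell, 3 NK cell, 5 dendritic cell, 9 platelet and 5 erythrocyte markers tested was DE in limma, and the T cell marker LAT alone among them passed with the rabbit as block (log2 FC 0.94, adjusted p = 0.0283, 0.0735 without it). The summed signal of the B cell list was 208.5 to 931.9 in mock and 203.6 to 711.8 in LPS cultures, and that of the T cell list 20.7 to 29.45 and 24.23 to 35.94. Of 6 neutrophil markers tested, MPO and CAMP were down-regulated, and FPR1, the formyl peptide receptor, passed upward with the block (log2 FC 2.33, adjusted p = 0.0307, 0.107 without it). The summed signal of the neutrophil list was 31.45 to 177.4 in mock and 128.7 to 327.9 in LPS cultures, and the part of these cell types in the changes described here was not tested.

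The 15 up-regulated genes with the largest log2 FC that have a symbol were led by the procoagulant and inhibitor genes of the fibrinolytic system and by cytokines. F3 encodes tissue factor, the cell surface protein that starts coagulation. Its levels in rabbits 1, 2, 4 and 5 were 3.83, 2.39, -0.36 and -1.0 in mock and 8.15, 6.90, 6.81 and 5.51 in LPS cultures. The LPS levels lay above all mock levels, and the spread between rabbits was wider in mock than in LPS cultures. F3 was up-regulated 49.5-fold (log2 FC 5.63 ± 0.89 SE, 95% interval 3.79 to 7.47, adjusted p = 0.000837), and its 2 probes gave log2 FC of 5.05 and 6.21. They were well above background on 2 and 3 of the 4 mock arrays, so the size of the change rests in part on dim mock signal. Without rabbit 4 its log2 FC was 5.12 with an adjusted p of 0.053.

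SERPINB2, an inhibitor of the plasminogen activators, had mock levels of 2.71, 1.24, 1.45 and 2.98 and LPS levels of 7.10, 5.76, 6.09 and 5.92. The groups were far apart in every rabbit, and the gene was up-regulated 17.4-fold (log2 FC 4.12 ± 0.41, adjusted p = 5.44e-06). These were the DE genes among 16 of tissue factor and fibrinolysis tested, whose median log2 FC was 0.29. PLAU, the urokinase activator that SERPINB2 inhibits, and THBS1, a platelet and matrix glycoprotein, had log2 FC of 1.95 and 1.94 and passed with the rabbit as block (adjusted p = 0.0075 and 0.00145, against 0.102 and 0.0735 without it). ENSOCUG00000003792, a transcript with no symbol whose probe shares 55 bases with a THBS1 probe, was DE (log2 FC 2.40, adjusted p = 0.049), and the 4 THBS1 probes ranged from 0.57 to 2.44.

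Across 21 pathway lists, whose members all have a symbol, 28 of 474 genes tested were up-regulated and 12 down-regulated, or 8.44%. The share was 1.22% over all genes, and 167 of the 9540 genes tested with a symbol were DE. The lists were chosen with earlier results of these data known, so their share is no test of enrichment. The largest group was the inflammatory cytokines, of which 8 of 33 were up-regulated and none down-regulated, with a median log2 FC of 0.09 over the list. IL6, the cytokine that drives the acute phase response, had mock levels of 4.09, 4.13, 1.17 and 0.29 and LPS levels of 7.95, 7.69, 6.98 and 6.0. It was up-regulated 26.5-fold (log2 FC 4.73 ± 0.72, adjusted p = 0.000597), and its 5 probes agreed within 4.68 to 4.77. In mock cultures the level was high in rabbits 1 and 2 and low in rabbits 4 and 5, whose mock arrays shared slide 1.

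The IL-1 family gave 4 of these cytokines. IL1B, the secreted form of IL-1 made by monocytes, had mock levels of 8.16, 6.82, 4.26 and 2.54 and LPS levels of 10.18, 9.41, 9.33 and 9.51 (log2 FC 4.16 ± 0.77, adjusted p = 0.00431). The mock levels spread over a wide range while the LPS levels lay close together, and the adjusted p was 0.15 without rabbit 4 at a log2 FC of 3.86. IL1A, its membrane-associated relative, showed the same order in mock cultures, from 6.11 in rabbit 1 to 0.62 in rabbit 5, and LPS levels from 6.46 to 7.82 (log2 FC 3.16 ± 0.79, adjusted p = 0.0486). The IL1A call was lost when rabbit 1, 2 or 4 was left out (adjusted p = 0.073, 0.21 and 0.38).

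IL36G, which acts on epithelial and dendritic cells, had mock levels of 2.33, 0.85, -0.87 and -1.29 and LPS levels of 5.24, 4.54, 4.17 and 3.38. It was up-regulated 16.9-fold (log2 FC 4.08 ± 0.54, adjusted p = 0.000128). IL37, a member of the family that damps inflammation, had mock levels of 1.21, 0.55, -0.64 and -1.16 and LPS levels of 3.29, 2.75, 2.78 and 2.33 (log2 FC 2.80 ± 0.37, adjusted p = 0.00012). Both genes were well above background on 2 of the 4 mock arrays, as were HBEGF, CSF3, VEGFC, C3AR1 and VSIG4 among the rises described further on, and the sizes of these rises rest in part on dim mock signal. In both genes rabbit 1 was highest and rabbit 5 lowest in each group, and LPS and mock levels did not overlap.

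IL10, the cytokine that restrains macrophage activation, had mock levels of 1.76, 1.00, -0.20 and -1.08 and LPS levels of 5.39, 5.42, 4.43 and 2.73 (log2 FC 4.12 ± 0.65, adjusted p = 0.0008, 0.055 without rabbit 4 at a log2 FC of 3.95). IL23A, the subunit particular to IL-23, had mock levels of 3.95, 3.26, 2.51 and 2.89 and LPS levels of 8.48, 6.25, 6.11 and 6.55 (log2 FC 3.70 ± 0.51, adjusted p = 0.000209). CSF3, which encodes the granulocyte growth factor G-CSF, had mock levels of 0.15, -0.65, -0.64 and -1.24 and LPS levels of 3.25, 2.13, 1.73 and 1.30 (log2 FC 2.69 ± 0.42, adjusted p = 0.000812). No LPS level of these genes overlapped a mock level.

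**Figure D2:**
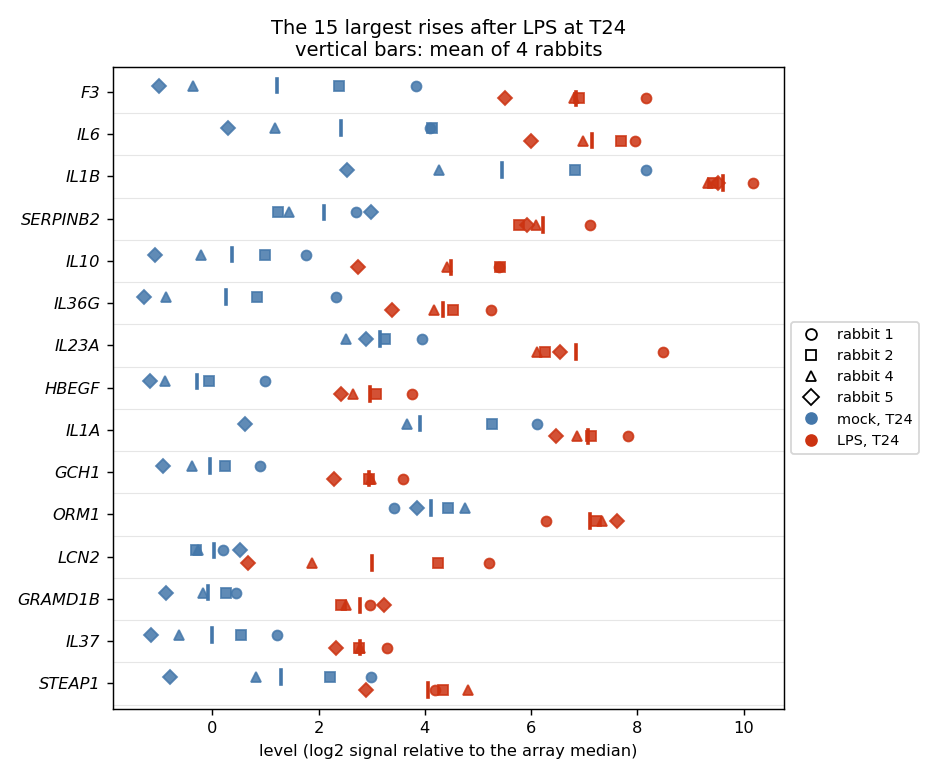
Levels of the 15 up-regulated genes with a symbol and the largest log2 FC (horizontal axis, log2 signal relative to the array median) in mock (blue) and LPS (red) cultures at T24. Marker shapes are rabbits and vertical bars are means of 4; the mock points of F3 run from -1.0 to 3.83 and its LPS points from 5.51 to 8.15.

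TNF, the early inflammatory cytokine, had mock levels of 6.49, 6.08, 4.53 and 3.50 and LPS levels of 8.46, 7.60, 7.31 and 7.22. LPS levels were above mock levels in all rabbits and did not overlap them, but the adjusted p was 0.054 (log2 FC 2.50, 95% interval 1.18 to 3.81), and 0.00104 with the rabbit as block. OSM, oncostatin M, also passed with the block (log2 FC 1.33, adjusted p = 0.0345, 0.195 without it). Probes without a symbol measured the same locus as TNF. ENSOCUG00000006698, which shares all 60 bases of a probe with TNF, was DE at a log2 FC of 2.61 (adjusted p = 0.0461), and the call was lost on leaving out any of rabbits 1, 2, 4 and 5 (adjusted p = 0.0969, 0.175, 0.319 and 0.0748). A_04_P004121, placed 661 bases from a TNF probe on the same strand, was DE at a log2 FC of 2.51 (adjusted p = 0.00547, 0.0836 without rabbit 2), with mock levels of 1.51, 0.88, 0.09 and -0.03 and LPS levels of 4.00, 2.84, 2.54 and 3.09. The printed starts of the probes of TNF (chr12:20401867-20401926) and of these transcripts (A_04_P004121 at chr12:20401147-20401206) show the shared bases in capitals.
TNF: taTTTATCTGATCAGGTTGTCTCACTAATG
ENSOCUG00000006698: TTTATCTGATCAGGTTGTCTCACTAATGct
A_04_P004121: aatcagcctgagtacctggaccttgccgag

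None of 18 chemokines with a symbol was DE in limma, and the median log2 FC of the list was -0.01. With the rabbit as block CCL4 (log2 FC 3.18) and CCL2 (2.10), which attract monocytes and T cells, were higher at adjusted p of 0.0194 and 0.042, against 0.0659 and 0.102 without it, and the skin chemokine CCL27 was lower (log2 FC -0.53, adjusted p = 0.0285, 0.075 without it). The CCL4 mock levels of 10.52, 9.96, 7.33 and 4.03 spread much more than the LPS levels of 11.69, 11.36, 11.06 and 10.46. CXCL8, the neutrophil attractant, showed mock levels of 10.43, 9.83, 9.08 and 4.79 and LPS levels of 11, 10.77, 10.66 and 10.22 (log2 FC 2.13, adjusted p = 0.242, 0.0703 with the block). Rabbit 5 alone was far lower in mock culture. ENSOCUT00000000771, described in the files as similar to the chemokine CCL3, was DE, with mock levels of 5.93, 4.77, 1.65 and 1.56 and LPS levels of 9.57, 8.22, 7.48 and 7.83 (27.9-fold, log2 FC 4.80, adjusted p = 0.00146).

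Among 34 cytokine and chemokine receptors, IL12RB2 and IL23R were up-regulated and none was down-regulated (list median 0.10). IL12RB2, the signalling chain of the IL-12 receptor, had mock levels from -0.22 to 0.24 and LPS levels from 0.57 to 1.37 (log2 FC 1.14 ± 0.22, adjusted p = 0.00638). IL23R, the receptor of IL-23, was dim, with mock levels of -0.53, -0.74, -0.92 and -1.07 and LPS levels of 0.09, 0.15, 0.28 and -0.59 (log2 FC 0.80 ± 0.16, adjusted p = 0.00946). IL10RB, a chain of the IL-10 receptor, passed with the block (log2 FC 0.77, adjusted p = 0.0473, 0.295 without it). Of the 4 IL23R probes 2 were well above background on 2 mock arrays each and 2 on none. The calls of IL12RB2 and IL23R were lost without rabbit 1, 2 or 4, with adjusted p from 0.06 to 0.33.

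Among 26 genes of LPS recognition and Toll-like receptor signalling the inhibitory kinase IRAK3, which limits signalling from these receptors, was the DE gene. Its mock levels were 2.06, 1.44, 1.71 and 2.20 and its LPS levels 3.13, 2.69, 2.69 and 2.69 (log2 FC 0.95 ± 0.17, adjusted p = 0.00312, 0.085 without rabbit 2 and 0.053 without rabbit 4). TLR4 itself had levels of 3.04 to 4.53 in mock and 2.94 to 4.94 in LPS cultures (log2 FC 0.37, 95% interval -0.63 to 1.37, adjusted p = 0.922). None of 22 NF-kappaB subunits and inhibitors was DE without the block, and BCL3, an atypical inhibitor of the family, passed with it (log2 FC 0.75, adjusted p = 0.022, 0.102 without it). The inhibitor NFKBIA had levels of 7.88 to 10.17 in mock and 9.43 to 10.69 in LPS cultures (log2 FC 0.69, adjusted p = 0.585).

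The feedback and immediate early factors gave 1 up-regulated and 1 down-regulated gene of 30. DUSP6, a phosphatase that switches off ERK, had mock levels of 1.13, 0.35, -0.08 and 0.18 and LPS levels of 2.18, 1.94, 1.56 and 1.30 (log2 FC 1.35 ± 0.24, adjusted p = 0.0035, 0.1 without rabbit 2 and 0.085 without rabbit 4). MYC, a transcription factor of growth, had mock levels of 2.12, 2.48, 2.98 and 2.74 and LPS levels of 1.71, 1.52, 1.27 and 2.15 (log2 FC -0.92 ± 0.19, adjusted p = 0.0117). The MYC groups overlapped through rabbit 5, and its call was lost without rabbit 2 or 4 (adjusted p = 0.19 and 0.37) and in the 8 arrays alone with the block (0.0605). SOCS3, an inhibitor of cytokine receptors, passed with the rabbit as block (log2 FC 1.58, adjusted p = 0.00211, 0.0595 without it). The phosphatase DUSP5 (log2 FC 1.03) and IER3 (1.35) did so too, at adjusted p of 0.0287 and 0.0123, against 0.0933 and 0.174 without it.

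Alarmins, acute phase and antimicrobial proteins moved in both directions, with 2 of 16 up-regulated and 2 down-regulated. LCN2, the iron-scavenging lipocalin, had mock levels of 0.21, -0.31, -0.27 and 0.53 and LPS levels of 5.22, 4.25, 1.88 and 0.67 (log2 FC 2.96 ± 0.57, adjusted p = 0.00598). The difference was large in rabbits 1 and 2 and only 0.147 in rabbit 5, and the call was lost without rabbit 1, 2 or 4 (adjusted p = 0.084, 0.24 and 0.086) and in the 8 arrays alone with the block (0.0752). S100A9, a subunit of calprotectin, had mock levels of 7.52, 6.50, 4.29 and 3.65 and LPS levels of 7.95, 7.80, 8.23 and 7.40 (log2 FC 2.35 ± 0.57, adjusted p = 0.0422). Its 2 probes are placed on opposite strands and gave 0.81 and 3.89, and the call was lost without rabbit 2, 4 or 5 (adjusted p = 0.14, 0.57 and 0.12) and in the 8 arrays alone with the block (0.0722). S100A8, the partner subunit, had mock levels of 10.36, 8.75, 6.71 and 5.48 and LPS levels of 11.12, 10.64, 11.16 and 9.74 (log2 FC 2.84, adjusted p = 0.0898, 0.00552 with the block). Mock levels of both subunits were highest in rabbit 1 and lowest in rabbit 5.

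ORM1, an acute phase glycoprotein outside the lists, differed from this pattern. Its mock levels were 3.43, 4.43, 4.75 and 3.85 and its LPS levels 6.28, 7.23, 7.34 and 7.61, so that rabbit 1 was lowest in both groups (log2 FC 3.0 ± 0.42, adjusted p = 0.000209). NM_001082327, named serum amyloid protein A in the files, had mock levels of 6.91, 7.92, 4.55 and 1.86 and LPS levels of 9.37, 11.01, 10.24 and 9.40 (26-fold, log2 FC 4.70, adjusted p = 0.00233, 0.13 without rabbit 4). ENSOCUT00000026905, described as calgranulin C, had a mean level of 7.10 ± 2.89 (SD, n = 4) in mock and 11.07 ± 0.47 in LPS cultures (log2 FC 3.97, adjusted p = 0.126, 0.000455 with the block).

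The 2 down-regulated members of the list are antimicrobial peptides. DEFB1, a beta-defensin, had mock levels of 5.44, 5.23, 6.24 and 5.33 and LPS levels of 4.10, 3.89, 2.05 and 0.99 (log2 FC -2.80 ± 0.58, adjusted p = 0.0112). CAMP, the cathelicidin, had mock levels of 1.69, 3.13, 3.15 and 3.62 and LPS levels of 1.02, 1.49, 1.03 and 0.37 (log2 FC -1.92 ± 0.35, adjusted p = 0.00415). The fall of DEFB1 was largest in rabbits 4 and 5, where its LPS levels were lowest, and the call was lost without rabbit 2 or 4 (adjusted p = 0.069 and 0.36). The CAMP call was lost without rabbit 4 (adjusted p = 0.16). HP, haptoglobin, was lower with the block (log2 FC -1.11, adjusted p = 0.0376, 0.096 without it). MPO, the peroxidase of neutrophil granules, had mock levels of 1.60, 1.62, 2.35 and 3.08 and LPS levels of 0.36, 0.48, 0.76 and 0.53 (log2 FC -1.63 ± 0.25, adjusted p = 0.000567).

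A set of 5 probes without a symbol, A_04_P013071 to A_04_P013075, gave some of the largest falls. They overlap on the minus strand between chr4:2037642-2037703 and chr4:2037654-2037707, about 1500 bases from a probe of BPI, a granule protein that binds LPS, and the first and the last share 56 of their 60 bases, as the capitals in the printed starts show in part.
A_04_P013071: CTCCTTTCAAAGCTCCAGGAGTTGCAtttc
A_04_P013075: tgagCTCCTTTCAAAGCTCCAGGAGTTGCA
These probes are repeats of 1 measurement. A_04_P013075 had mock levels of 5.02, 5.01, 6.39 and 7.50 and LPS levels of 3.08, 2.32, 2.53 and 3.65 (log2 FC -3.09, adjusted p = 0.00494, 0.083 without rabbit 2 and 0.2 without rabbit 4). BPI had mock levels of 2.28, 2.22, 2.70 and 4.77 and LPS levels of 1.47, 1.19, 1.43 and 1.71 (log2 FC -1.55, adjusted p = 0.156, 0.00199 with the block). Rabbit 5 was highest in mock culture in both.

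Pattern recognition and scavenger receptors also split, with 4 of 25 up-regulated and 2 down-regulated. MSR1, the class A scavenger receptor, had mock levels of 2.76, 1.82, 0.52 and 0.18 and LPS levels of 3.14, 3.46, 3.29 and 3.43 (log2 FC 2.01 ± 0.40, adjusted p = 0.00793). SIGLEC1, the sialic acid receptor of macrophages, was up-regulated 3.21-fold (log2 FC 1.68 ± 0.41, adjusted p = 0.0417), with mock levels from -0.10 to 2.59 that overlapped LPS levels from 1.85 to 4.03. C3AR1, the receptor of complement C3a (log2 FC 1.34 ± 0.30, adjusted p = 0.0223), and STAB1, a scavenger receptor (0.91 ± 0.22, adjusted p = 0.0453), completed the rises. Each of these 4 calls was lost without rabbit 2 and without rabbit 4, with adjusted p from 0.082 to 0.51, and those of C3AR1 and STAB1 also without rabbit 1 (0.071 and 0.093).

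The receptor that fell most was CLEC7A, or dectin-1, which binds fungal beta-glucan. Its mock levels were 1.72, 2.33, 3.30 and 2.72 and its LPS levels 0.32, 0.15, -0.43 and -0.59 (log2 FC -2.65 ± 0.30, adjusted p = 1.45e-05). MPEG1, a pore-forming protein of the phagosome, had mock levels of 1.28, 2.08, 3.64 and 1.36 and LPS levels of -0.28, 0.86, -0.09 and -0.83 (log2 FC -2.17 ± 0.41, adjusted p = 0.00494, 0.14 without rabbit 4). LPS levels lay below all mock levels in both. MARCO, another class A scavenger receptor, had mock levels of 0.18, 3.36, 1.93 and 3.35 and LPS levels of -0.34, 1.59, -0.20 and -0.13 (log2 FC -1.98, adjusted p = 0.343, 0.00843 with the block). FPR1 passed in the other direction (log2 FC 2.33, adjusted p = 0.0307 with the block, 0.107 without it).

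Lysosomal enzymes and proton pump subunits gave 4 down-regulated genes of 50 tested, with a list median of -0.03. ATP6V0D2, a subunit of the vacuolar proton pump found in osteoclasts and macrophages, had mock levels of 5.20, 5.92, 6.80 and 5.70 and LPS levels of 3.30, 2.86, 2.55 and 3.65. The groups were far apart in every rabbit, and it was down-regulated 7.05-fold (log2 FC -2.82 ± 0.35, adjusted p = 5.19e-05). GUSB, which encodes beta-glucuronidase, had mock levels of 6.0, 6.45, 7.49 and 6.99 and LPS levels of 4.51, 4.53, 3.89 and 5.13 (log2 FC -2.21 ± 0.25, adjusted p = 1.29e-05). CTBS, chitobiase, fell from mock levels of 4.07, 5.43, 6.55 and 5.69 to LPS levels of 3.30, 3.58, 2.94 and 2.61 (log2 FC -2.33 ± 0.36, adjusted p = 0.000674, 0.055 without rabbit 4). In these 3 genes rabbit 4 had the highest mock level.

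OSTM1, a partner of the lysosomal chloride exchanger, was the remaining fall (log2 FC -1.27 ± 0.24, adjusted p = 0.00502), and its call was lost without rabbit 1, 2 or 4 (adjusted p = 0.0504, 0.0557 and 0.214). With the rabbit as block the list held 8 down-regulated genes. The proteases CTSE (log2 FC -1.50) and CTSH (-0.74), the phosphatase ACP5 (-0.92) and the membrane protein CD63 (-0.55) were those added, at adjusted p of 0.00546, 0.0454, 0.0275 and 0.0409, against 0.0718, 0.398, 0.0787 and 0.645 without the block.

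MLANA, a melanosome protein whose gene is a target of the MITF transcription factor, had mock levels of 3.01, 3.93, 4.85 and 4.50 and LPS levels of 1.32, 1.40, 0.91 and 0.50. It was down-regulated 8.21-fold (log2 FC -3.04 ± 0.26, adjusted p = 1.34e-06). MLANA and ATP6V0D2 were the DE genes among 20 of the MITF family and osteoclast-like list (median -0.13). DCSTAMP, which drives fusion of osteoclasts, was at -1.38 and passed with the block (adjusted p = 0.0199, 0.0772 without it).

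**Figure D3:**
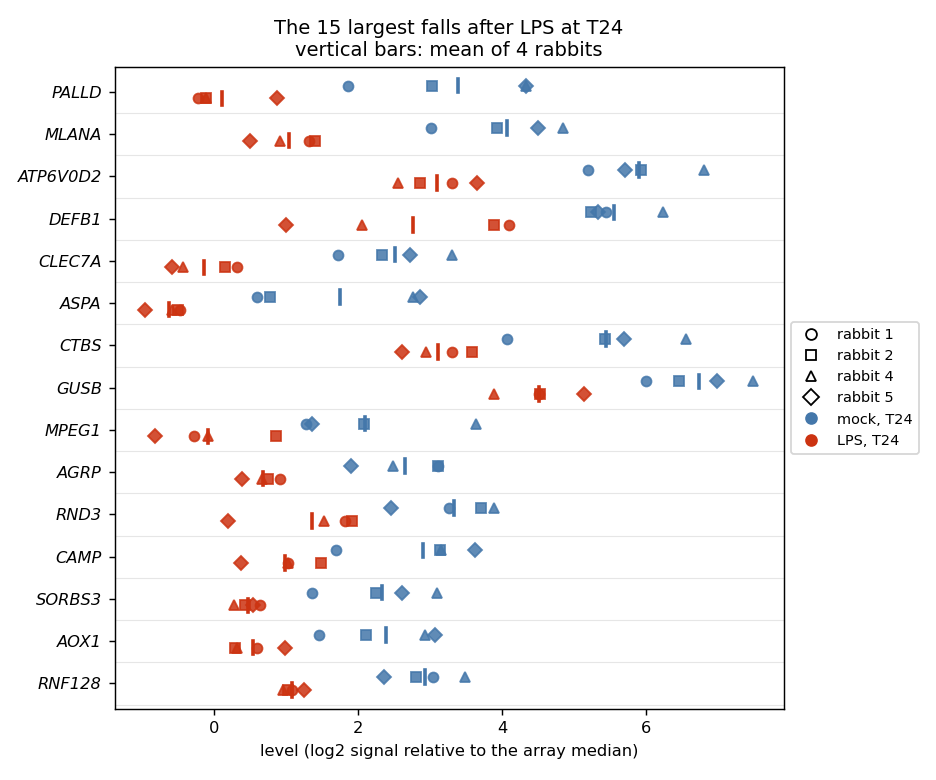
Levels of the 15 down-regulated genes with a symbol and the largest log2 FC (horizontal axis, log2 signal relative to the array median) in mock (blue) and LPS (red) cultures at T24. Marker shapes are rabbits and vertical bars are means of 4; the mock points of MLANA run from 3.01 to 4.85 and its LPS points from 0.50 to 1.40.

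PALLD, an actin-bundling protein, had mock levels of 1.86, 3.02, 4.33 and 4.33 and LPS levels of -0.23, -0.11, -0.12 and 0.87, the largest fall among genes with a symbol (9.75-fold, log2 FC -3.28 ± 0.39, adjusted p = 2.23e-05). RND3, a GTPase that opposes RhoA (log2 FC -1.97 ± 0.41, adjusted p = 0.0127), and SORBS3, the focal adhesion protein vinexin (-1.86 ± 0.26, adjusted p = 0.00026), were lower as well. The RND3 call was lost without rabbit 1, 2 or 4 (adjusted p = 0.084, 0.094 and 0.29). ASPA, which splits N-acetylaspartate, had mock levels of 0.59, 0.78, 2.76 and 2.86 and LPS levels of -0.48, -0.51, -0.58 and -0.96 (log2 FC -2.38 ± 0.36, adjusted p = 0.000513). Its mock levels formed a low pair in rabbits 1 and 2 and a high pair in rabbits 4 and 5, whose mock arrays shared slide 1.

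AOX1, aldehyde oxidase, was down-regulated with mock levels from 1.45 to 3.07 and LPS levels from 0.29 to 0.99 (log2 FC -1.85 ± 0.26, adjusted p = 0.000209). RNF128, a ubiquitin ligase known for restraining T cell activation, had mock levels from 2.36 to 3.48 and LPS levels from 0.96 to 1.25 (log2 FC -1.84 ± 0.21, adjusted p = 2.11e-05). AGRP, a neuropeptide known from the hypothalamus, had mock levels from 1.90 to 3.11 and LPS levels from 0.39 to 0.92 (log2 FC -1.97 ± 0.22, adjusted p = 1.21e-05). The LPS levels of RNF128 lay within a narrow band, and the groups of all 3 genes were separate.

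The transcription factors CEBPA and IRF5 were down-regulated. CEBPA, a factor of monocyte and granulocyte development, had mock levels from 1.21 to 2.07 and LPS levels from 0.61 to 1.01 (log2 FC -0.82 ± 0.17, adjusted p = 0.0161). IRF5, which drives inflammatory cytokine genes, was the DE gene among 31 of the interferon response, with mock levels from 5.72 to 6.57 and LPS levels from 4.48 to 5.63 (log2 FC -1.17 ± 0.25, adjusted p = 0.0175). The median log2 FC of that list was 0.26, and OASL, an interferon-induced gene, passed upward with the block (log2 FC 1.69, adjusted p = 0.0398, 0.105 without it). Leaving out rabbit 1, 2 or 4 lost the IRF5 call (adjusted p = 0.12, 0.14 and 0.17), and leaving out rabbit 1, 4 or 5 lost that of CEBPA (0.093, 0.33 and 0.082), as did the block in the 8 arrays alone (0.0647).

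The metabolic and growth factor lists gave 1 and 2 rises. GCH1, the first enzyme of tetrahydrobiopterin synthesis, a cofactor of nitric oxide synthase, had mock levels of 0.89, 0.23, -0.39 and -0.93 and LPS levels of 3.59, 2.94, 2.99 and 2.28 (log2 FC 3.0 ± 0.49, adjusted p = 0.00131, 0.055 without rabbit 4), and was 1 of 19 in its list. PFKP, a phosphofructokinase of that list, passed with the block (log2 FC 1.07, adjusted p = 0.0239, 0.0605 without it). HBEGF, a ligand of the EGF receptor, had mock levels of 1.00, -0.07, -0.89 and -1.17 and LPS levels of 3.76, 3.08, 2.64 and 2.42 (log2 FC 3.26 ± 0.39, adjusted p = 3.27e-05), and the lymphatic growth factor VEGFC joined it among 19 (log2 FC 1.24 ± 0.24, adjusted p = 0.00651, 0.18 without rabbit 2 and 0.17 without rabbit 4). HBEGF kept the same order of rabbits in both groups. MMP3, a stromelysin, was DE among 18 metalloproteinases and inhibitors (log2 FC 2.62 ± 0.37, adjusted p = 0.000252), although its 3 probes ranged from 0.87 to 3.54.

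Lipid genes gave 1 rise among 24, that of ABCA1, the cholesterol efflux pump, with mock levels of 2.71, 1.77, 1.29 and 0.34 and LPS levels of 3.65, 3.31, 3.37 and 2.30 (log2 FC 1.63 ± 0.38, adjusted p = 0.0292, 0.28 without rabbit 2 and 0.42 without rabbit 4). GRAMD1B, which moves cholesterol from the plasma membrane and was named by the size of its change, had mock levels of 0.45, 0.25, -0.18 and -0.88 and LPS levels of 2.97, 2.43, 2.52 and 3.23 (log2 FC 2.87 ± 0.29, adjusted p = 5.75e-06). DGAT2, an enzyme of triglyceride synthesis, was at 2.33 and passed with the block (adjusted p = 0.00341, 0.107 without it), as did the nuclear receptor PPARD at 0.82 (adjusted p = 0.022, 0.0538 without it). LTA4H, which makes leukotriene B4, fell by 0.55 on the log2 scale (adjusted p = 0.0481), whereas PTGS2, the inducible cyclooxygenase, had mock levels of 4.37, 4.28, 3.26 and 0.90 and LPS levels of 6.01, 5.93, 5.42 and 4.67 (log2 FC 2.31, adjusted p = 0.0796, 0.000894 with the block). The LTA4H call was lost without rabbit 1, 2 or 4 (adjusted p = 0.32, 0.32 and 0.54) and in the 8 arrays alone with the block (0.121). The phospholipase PLA2G4A (log2 FC 1.35) and the prostacyclin receptor PTGIR (1.04) passed with the block, at adjusted p of 0.00617 and 0.00166, against 0.114 and 0.0965 without it.

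STEAP1, a membrane protein of the metalloreductase family, was the last of the largest rises (log2 FC 2.75 ± 0.54, adjusted p = 0.00707), with overlapping levels from -0.80 to 2.98 in mock and from 2.89 to 4.80 in LPS cultures, and its call was lost without rabbit 2 or 4 (adjusted p = 0.088 and 0.33). SLAMF1, a costimulatory receptor, was the rise among 22 genes of costimulation (log2 FC 1.34, adjusted p = 0.0407). Its call was lost on leaving out rabbit 1, 2, 4 or 5 (adjusted p = 0.055, 0.37, 0.14 and 0.073). No gene of MHC class II presentation, of 10 tested, or of DNA replication and mitosis, of 26 tested, was DE without the block, and the medians of these lists were 0.15 and 0.38. With it MARCHF1, a ubiquitin ligase that removes MHC class II from the surface (log2 FC 0.78), RRM2, a ribonucleotide reductase subunit (0.87), and UBE2C, a ubiquitin carrier of mitosis (0.66), passed at adjusted p of 0.0276, 0.00219 and 0.0379, against 0.0626, 0.0813 and 0.423. The death receptor FAS passed in the same way (log2 FC 0.72, adjusted p = 0.0477, 0.38 without it).

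**Figure D4:**
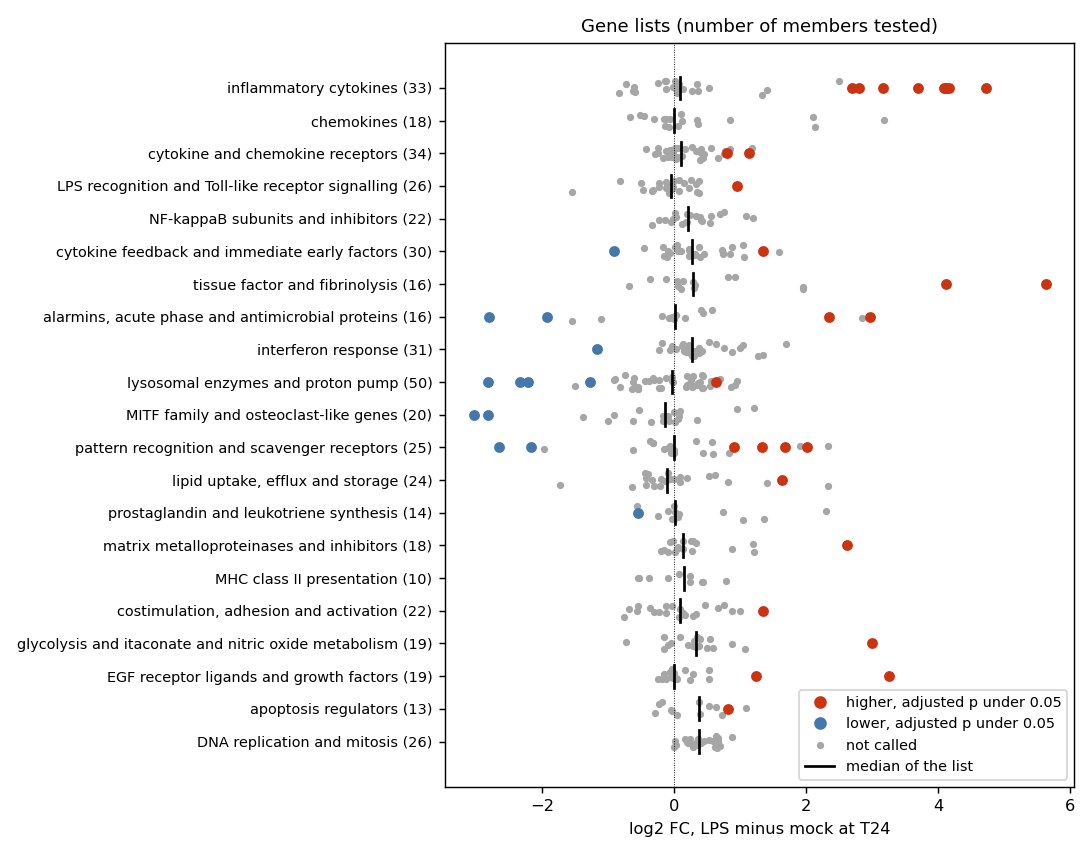
Log2 FC of LPS against mock at T24 (horizontal axis) for each gene tested of 21 pathway lists, with the number tested in brackets. Red and blue points are up- and down-regulated DE genes, grey points are genes that were not DE and black bars are list medians; inflammatory cytokines hold 8 of the 28 red points.

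Of the 350 DE genes, 183 had no symbol in the tables used, and 30 of these shared at least 25 bases with a probe of another DE gene. ENSOCUG00000027471, up-regulated 27-fold, shares all 60 bases with an IL6 probe, and ENSOCUG00000014289 (log2 FC -1.09) shares sequence with a MYC probe, and ENSOCUG00000011856 (-2.03) with an AGRP probe. Such pairs are not independent genes. A_04_P079802 had mock levels of 1.91, 0.95, -0.61 and -0.12 and LPS levels of 5.36, 4.70, 3.11 and 2.90 (log2 FC 3.49, adjusted p = 0.00285, 0.058 without rabbit 2). ENSOCUT00000027590, described as a clade B serpin, had mock levels of -0.61, -1.08, -0.89 and -1.17 and LPS levels of 2.45, 1.09, 1.14 and 3.02 (adjusted p = 1.29e-05). Of its 3 probes 2 were well above background on no mock array and 1 on 1, so no size of the change is given.

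The largest fall of all was that of ENSOCUT00000014570, which had no description. Its mock levels were 6.20, 6.65, 8.14 and 8.24 and its LPS levels 2.94, 3.50, 4.31 and 4.64 (log2 FC -3.46, adjusted p = 0.00579, 0.12 without rabbit 2 and 0.19 without rabbit 4). lcao0026.a.05.c_5.1.rev2, a rabbit cDNA clone, had mock levels of 5.39, 6.45, 7.27 and 5.68 and LPS levels of 3.16, 2.76, 2.65 and 3.51 (log2 FC -3.18, adjusted p = 1.29e-05). ENSOCUT00000015230, described as similar to granzyme A, fell in rabbits 1, 2 and 4, from 3.92, 6.0 and 5.87 to 1.99, 1.14 and 1.39, but in rabbit 5 was 1.42 in mock and 2.08 in LPS culture (log2 FC -2.65, adjusted p = 0.0204). That call was lost without rabbit 1, 2 or 4 (adjusted p = 0.12, 0.41 and 0.45) and in the 8 arrays alone with the block (0.138). NM_001082325, a leukocyte protein in the files, had mock levels from 3.55 to 5.15 and LPS levels from 1.87 to 2.84 (log2 FC -2.22, adjusted p = 0.000434).

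Some DE genes outside the lists and the largest changes were picked after their values were seen. The rises included ACTA2, smooth muscle actin (log2 FC 2.15, adjusted p = 3.2e-06), CEBPE, a factor of granulocyte maturation (1.48, adjusted p = 5.75e-06), GJB2, a connexin (2.68, adjusted p = 3.51e-05), and MT2A, a metallothionein (1.73, adjusted p = 0.000773, 0.064 without rabbit 4). VSIG4, the complement receptor of resident macrophages (1.87, adjusted p = 0.00579), and MEFV, which encodes pyrin (1.63, adjusted p = 0.042), were higher but lost their calls without rabbit 1, 2 or 4, with adjusted p from 0.064 to 0.33. The elastase inhibitor PI3 was well above background on no mock array (at least 3.36-fold, adjusted p = 0.0031, 0.12 without rabbit 2 and 0.15 without rabbit 4). The falls included PRDX1, a peroxidase that removes hydrogen peroxide (-1.24, adjusted p = 0.00321, 0.16 without rabbit 2 and 0.15 without rabbit 4), MGST1, a microsomal glutathione transferase (-0.98, adjusted p = 0.00377, 0.16 without rabbit 4), and FBN1, fibrillin, above background on no LPS array (at least 2.38-fold lower, adjusted p = 0.00268, 0.09 without rabbit 2 and 0.052 without rabbit 4).

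The response at T24 was set against that at T4, where the 8 LPS and mock arrays are different ones. At T4, 296 genes (1.03%) were DE, of which 16 (0.0556%) were up-regulated and 280 (0.973%) down-regulated. Only 7 genes were DE at both times, which is 2% of the T24 genes and 2.37% of the T4 genes. IL23A, the cDNA lcaw0026.b.03.a_5.1.fwd2 and ENSOCUT00000010015, described as lamin A, changed in the same direction. The log2 FC at T4 was 2.27 for IL23A and -1.12 for ENSOCUT00000010015, and lcaw0026.b.03.a_5.1.fwd2 was well above background on no mock array of either time, with at least 1.92-fold at T24. The trafficking GTPases RAB5C and RAB10, ENSOCUT00000015242 and lcaw0079.e.09.a_5.1.fwd1 were down-regulated at T4 (log2 FC -0.86, -0.70, -1.0 and -0.87) and up-regulated at T24, by a log2 FC of 0.77, 0.52 and 1.15 for the first 3. lcaw0079.e.09.a_5.1.fwd1 was well above background on no mock array of T24, which gives at least 1.80-fold. The RAB5C and RAB10 calls at T24 were each lost without rabbit 1, 2 or 4 (adjusted p from 0.073 to 0.36), and that of RAB10 also without rabbit 5 (0.131). Those of ENSOCUT00000015242 and lcaw0079.e.09.a_5.1.fwd1 were lost without rabbit 2 (0.0511 and 0.157).

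The difference between the responses, tested as an interaction, passed for 559 genes (1.94%), of which 490 (1.7%) were more positive at T24 and 69 (0.24%) more negative. With the rabbit as block it passed for 1654 genes. Of the 181 up-regulated T24 genes 99 passed, and of the 169 down-regulated genes 49 passed, with signs that follow from those of the T24 changes. The count ranged from 7, when rabbit 2 was left out, to 399, when rabbit 1 was left out, and was 31 and 183 on leaving out rabbits 4 and 5.

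Levels in the 4 groups differed in kind between genes. For IL1B the mean level was 9.25 in mock and 8.79 in LPS cultures at T4, and 5.45 in mock and 9.61 in LPS cultures at T24. The mean mock level was lower at T24 than at T4, and the response differed by 4.63 (adjusted p = 0.0293). SERPINB2 had means of 6.89 and 7.01 at T4 and of 2.10 and 6.22 at T24 (difference of responses 4.01, adjusted p = 0.00162). HBEGF had 1.01 and 1.00 at T4 and -0.28 and 2.97 at T24 (difference 3.27, adjusted p = 0.00462). IL23A had 3.95 and 6.23 at T4 and 3.15 and 6.85 at T24, and its responses were not found to differ (1.42, adjusted p = 0.334).

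In 4 down-regulated genes the mean mock level was higher at T24 than at T4, and at T24 the LPS mean lay below it. ATP6V0D2 had means of -0.56 in mock and -0.51 in LPS cultures at T4, and of 5.91 and 3.09 at T24 (difference of responses -2.86, adjusted p = 0.00509). MLANA had 0.24 and 0.34 at T4 and 4.07 and 1.03 at T24 (difference -3.14, adjusted p = 0.00039). CLEC7A had 0.07 and -0.34 at T4 and 2.52 and -0.14 at T24 (difference -2.25, adjusted p = 0.0102), and PALLD -0.63 and -0.55 at T4 and 3.39 and 0.10 at T24 (difference -3.37, adjusted p = 0.00378). Mock cultures of the 2 times were not tested against each other. Without rabbit 2 or 4 the differences of IL1B, HBEGF, ATP6V0D2, CLEC7A and PALLD had adjusted p from 0.06 to 0.23, that of SERPINB2 was 0.075 without rabbit 2, and that of IL1B was 0.097 without rabbit 5.

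**Figure D5:**
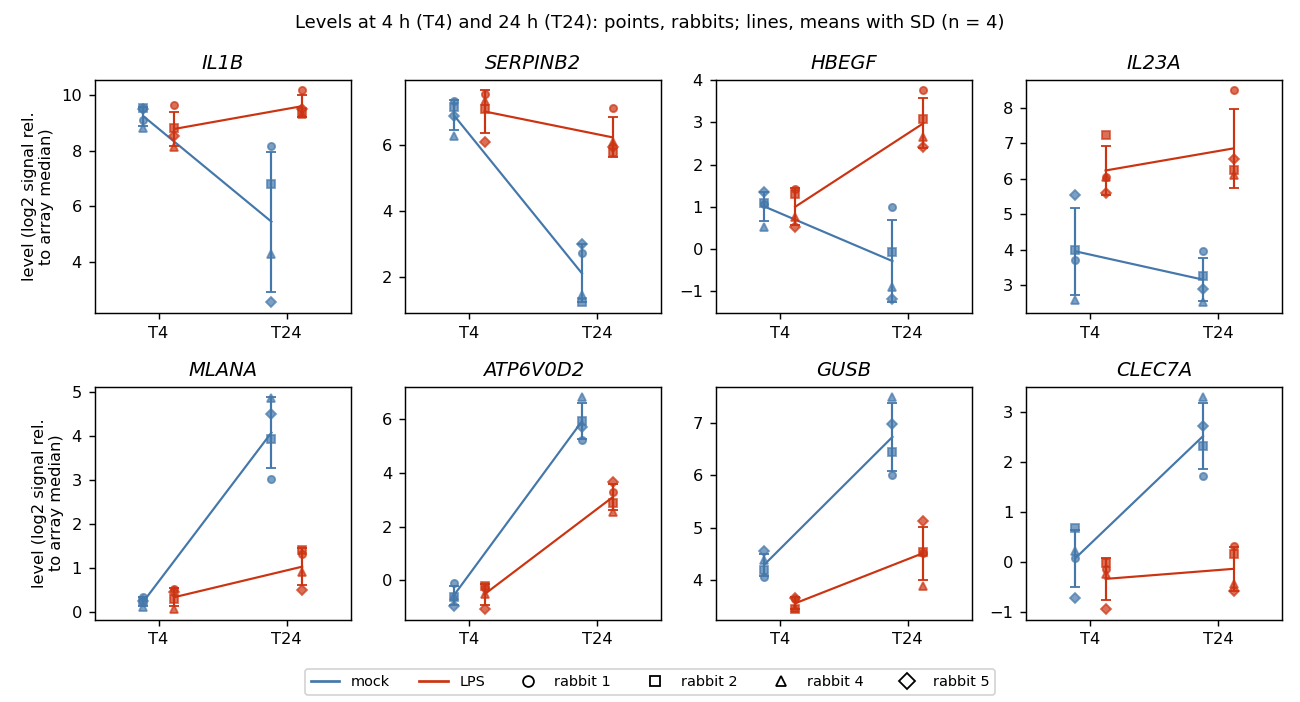
Levels (vertical axes, log2 signal relative to the array median) of 8 genes in mock (blue) and LPS (red) cultures at T4 and T24. Points are rabbits, and lines join means with SD (n = 4); the mock mean of IL1B is 9.25 at T4 and 5.45 at T24, and that of ATP6V0D2 is -0.56 and 5.91.

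PMA-Ionomycin cultures of T24 are compared with the same 4 mock arrays, so their log2 FC are given only side by side with those of LPS. For IL1B the log2 FC was 4.16 with LPS and -3.40 with PMA-Ionomycin, for SERPINB2 4.12 and -1.96, and for IL23A 3.70 and -3.01. F3 was at 5.63 and 4.22, and IL6 at 4.73 and 2.16. Among the down-regulated genes MLANA was at -3.04 and -3.13, ATP6V0D2 at -2.82 and -3.13, GUSB at -2.21 and -2.57, and MYC at -0.92 and 1.61.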

How the data were processed

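Each culture gave Cy3-labelled RNA that was hybridised to a separate Agilent rabbit array. The authors deposited the Feature Extraction 10.7.3.1 output of the arrays, whose median spot signal is an intensity not scaled between arrays. They also deposited a table of log2 values of 42089 probes, whose column medians lie between -1.11 and -0.811. What they were centred on is not stated in the file, and they served as an alternative.

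The log2 median signal of 61657 spots that are not controls was centred on the array median of these spots. Spots marked as outliers in the files (280 to 351 an array) were then left out. Spots were averaged per probe, and probes with a value on all arrays per gene, which gave 28765 genes for testing, 9540 with a symbol. Of the probes, 11029 were named through RefSeq accessions, 8437 through gene numbers, 457, 94 and 272 through the array's enrichment list, the gene name and the description in the files, and 21800 kept an identifier only. A gene was well above background on an array when most of its probes were. Where no probe of a gene was so on any array of a group, the fold is the bright group's mean over a floor, set on each array at the dimmest probe still well above background or at the probe's own signal if higher.

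Groups came from the sample labels. The number of arrays, 4 a group, limits the precision. LPS was compared with mock at T24, and the response at T24 with that at T4, by limma 3.58.1 (lmFit and eBayes, two-sided, a mean for each of 6 groups over 24 arrays) with Benjamini-Hochberg adjustment over all genes, in R 4.3.3 with data.table (version 1.17.8). Python 3.11.15, numpy 2.4.6, pandas 2.3.3 and matplotlib 3.10.9 read the files and drew the plots. The rabbit number marks the same animal, and the deviations of paired arrays from their group means correlated at 0.448, 0.117, 0.393 and 0.567 for rabbits 1, 2, 4 and 5, so the fit of 24 arrays with the rabbit as block, or that of the 8 arrays where stated, is given where it changed the call of a gene named or of a list member. Simulated arrays were drawn independently from the overall mean and the fitted spread of each gene. They held no rabbit or slide effect, and the spread was the same in all groups. In them 82% of genes changed by 1 on the log2 scale and 98% of those changed by 2 were recovered at T24 among 28765 genes. Of the simulated calls 3.23% were false, and the interaction recovered 57% and 96%. The real arrays depart from that setting, so these shares are not their error rates.

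The genes named are the 15 largest rises and 15 largest falls with a symbol, limited to genes of 1 direction in all rabbits that the brighter group showed above background on every array, the members of 21 pathway and 8 marker lists (520 genes tested of 785 listed), and genes that turned direction between times. The comparison, the lists and the transcripts without a symbol were chosen with earlier results of these data known. Summed list signals are linear signals relative to the array median. Alternatives were other scalings, filters, blocks and weights, and leaving out each rabbit. The PMA-Ionomycin cultures are given only side by side. Promoter and protein sequences were not used here. Results of some list members are not reported here.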

Additional observations from a re-analysis of the deposited data

Results flagged for a closer look

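Of 118 groups of 4 levels examined, 3 held an array far from the other 3, where chance alone gives about 1 in 20. The gap of that array to its nearest neighbour was 0.893 of the group's range for PALLD in the LPS culture of rabbit 5 (level 0.87, others -0.23 to -0.11), 0.981 for IRAK3 in the LPS culture of rabbit 1 (3.13, others 2.69 to 2.69) and 0.905 for LTA4H in the mock culture of rabbit 5 (3.53, others 3.69 to 3.71).

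The LPS response of 29 named genes at T24 differed from that at T4 in limma's interaction test. For 27 of them the call was lost when some rabbit was left out, with adjusted p from 0.0543 to 0.346, and MLANA and ENSOCUT00000015242 were the exceptions. Leaving out rabbit 2 ended all 27 of these calls, and the other 3 rabbits ended 6 to 22. The log2 difference of the responses, T24 minus T4, was positive for IL1B (4.63), IL36G (4.02), SERPINB2 (4.01), IL10 (3.63), ORM1 (3.55), STEAP1 (3.40), HBEGF (3.27), LCN2 (3.24), IL37 (2.95), MMP3 (2.25), GRAMD1B (2.04), DUSP6 (1.78) and IRAK3 (1.15). The genes that turned from lower at T4 to higher at T24 were ENSOCUT00000015242 (2.15), lcaw0079.e.09.a_5.1.fwd1 (1.72, a fitted value only, since its mock cultures of T24 were not well above background), RAB5C (1.63) and RAB10 (1.22). The difference was negative for PALLD (-3.37), MLANA (-3.14), ATP6V0D2 (-2.86), ASPA (-2.59), CLEC7A (-2.25), AGRP (-2.20), CTBS (-2.15), SORBS3 (-1.57), MPO (-1.56), RNF128 (-1.52), GUSB (-1.48) and MYC (-1.26).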

How the results depend on the processing

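The 350 DE genes of T24 became 65 (31 up, 34 down) when only the 8 arrays were fitted without the rabbit, 744 and 852 with the rabbit as replicate block in the fits of 24 and of 8 arrays (613 up in the latter, 71.95%, against 51.71% in the reported fit), 933 with array weights, 717 as single probes and 225 with at least 2-fold change. Leaving out 1 rabbit gave 83 (without rabbit 4) to 608 (without rabbit 5, 234 up and 374 down), and 59.02% of the 244 genes were up without rabbit 1. Other scalings, the filter on dim probes, the slide as a block and other eBayes settings gave 290 to 480.

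The 559 genes of the interaction became 175 with the processed signal (69.14% more positive at T24 against 87.66%), 1654 with the replicate block, 2154 with array weights and 1023 as single probes, and 7 to 399 when 1 rabbit was left out. Quantile normalisation and normexp gave 734 and 722, with 73.43% and 71.75% more positive.

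Of 56 named DE genes, 15 remained DE with only the 8 arrays and 23 to 51 when 1 rabbit was left out. Under each of the 16 alternatives 13 were DE: SERPINB2, IL23A, HBEGF, ORM1, GRAMD1B, CSF3, PALLD, MLANA, ATP6V0D2, CLEC7A, GUSB, AGRP and RNF128. The replicate block over 24 arrays ended no call among the 350, and that over the 8 arrays kept 284 of them and 49 of the 56. The cause of these differences was not tested.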
